A study of Mus musculus with 30 samples.

Results

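The 10 genes described here belong to interleukin 6 (IL-6) signalling, to the transcription factor STAT3 and to the acute phase response: STAT3, SOCS3, IL6RA, IL6ST, LIFR, OSMR, SERPINA3N, SAA3, CISH and BCL3. They were found by gene symbol, all 10 were present, and the table held 21073 genes in all. The tissue was the extensor digitorum longus (EDL), a fast muscle of the hind limb, from wild-type female SJL/J mice, and each of 30 mice gave 1 RNA-Seq library. EAE (experimental autoimmune encephalomyelitis, a model of multiple sclerosis) was induced with a proteolipid protein (PLP) peptide in complete Freund's adjuvant (CFA). OVA mice received ovalbumin in the same adjuvant, and Ctrl mice were not immunized. Muscle was taken 14 days after induction, at the peak of disease, or 40 days after it, in chronic remission, from 5 mice per group and day. An estimated 18.1M to 31.5M reads per mouse (M, 1000000) had been assigned to genes. The mice of the 2 days were different animals, the ages of the mice were not given in the sources used here, and the OVA mice carry the adjuvant that the EAE mice carry, without the myelin antigen. The design therefore asks whether these genes differed with EAE, with ovalbumin in adjuvant, and between peak and remission.

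IL-6 binds its receptor chain IL6RA and then the shared signalling chain IL6ST (gp130), which also pairs with LIFR for leukemia inhibitory factor and with OSMR for oncostatin M. JAK kinases bound to these chains phosphorylate STAT3, which enters the nucleus and switches on targets such as SOCS3, the feedback inhibitor of gp130. CISH is the related inhibitor induced by STAT5, SERPINA3N and SAA3 are acute phase genes that many tissues make in inflammation, and BCL3 is a nuclear IκB protein that works with NF-kB subunits. In muscle, IL-6 is released by contracting fibres, and prolonged STAT3 activity is known from muscle wasting.

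The regulatory sequence near the start site differed among the 10 genes. All 10 had a promoter window in RefSeq (GRCm38.p6), covering 250 bases before and 50 bases after the annotated start. The palindromic STAT motif TTCNNNGAA was present in 2 of the 10, SOCS3 and CISH. Of all 27025 genes with such windows 9.55% held that motif, and of all 32851 windows of this length 8.3%. The NF-kB motif, searched on both strands, was present in BCL3 alone of the 10, in 9.55% of all genes and in 8.46% of all windows. The match in SOCS3 began 154 bases before an annotated start that lies inside the gene span given below. The pair in CISH covered bases 1 to 9 and 12 to 20 of the annotated transcript. The match in BCL3 covered bases 3 to 12. The motifs did not overlap, and no factor binding was measured. The 30 bases around each match are shown for CISH and BCL3 because these genes were called in the comparison of EAE and OVA mice, and for SOCS3 because it is the classical STAT3 target. Capitals mark the motif.
CISH, chr9:107296654-107296683, plus strand: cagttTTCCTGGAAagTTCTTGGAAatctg
SOCS3, chr11:117969501-117969530, minus strand: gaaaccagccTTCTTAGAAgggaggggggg
BCL3, chr7:19822734-19822763, minus strand: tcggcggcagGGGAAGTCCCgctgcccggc

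Levels are given in RPKM, that is reads per kilobase of exon and 1000000 assigned reads, so genes can be set side by side. IL6ST and STAT3 were the most abundant, with group means of 25.1 to 50 RPKM and 25.5 to 29.3 RPKM. CISH followed with 3.74 to 22.9 RPKM. LIFR, SOCS3, SERPINA3N, BCL3 and OSMR had group means between 2.44 and 6.70 RPKM. SAA3 lay between 1.20 and 5.38 RPKM, and IL6RA between 1.76 and 2.54 RPKM. IL-6 itself and several relatives were low in the muscle: the group means of IL6 were 0.0700 to 0.222 RPKM, those of LIF 0.115 to 0.260 RPKM, those of OSM 0.0953 to 0.181 RPKM, those of CNTF 0.0731 to 0.156 RPKM and those of IL11 0.0385 to 0.0927 RPKM. Those of CLCF1 were 0.526 to 1.15 RPKM. Of 11 ligand genes listed, 2 passed the filter of 3 RPKM used below, among them CTF1 (cardiotrophin 1). CTF1 was at 8.90 ± 1.14 RPKM in EAE and 8.17 ± 1.46 RPKM in Ctrl mice on day 14 (SD, n = 5), and the difference was not called (limma adjusted p = 0.502). The whole muscle was sequenced, so fewer cells of a type and less RNA per cell cannot be told apart.

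**Figure D1:**
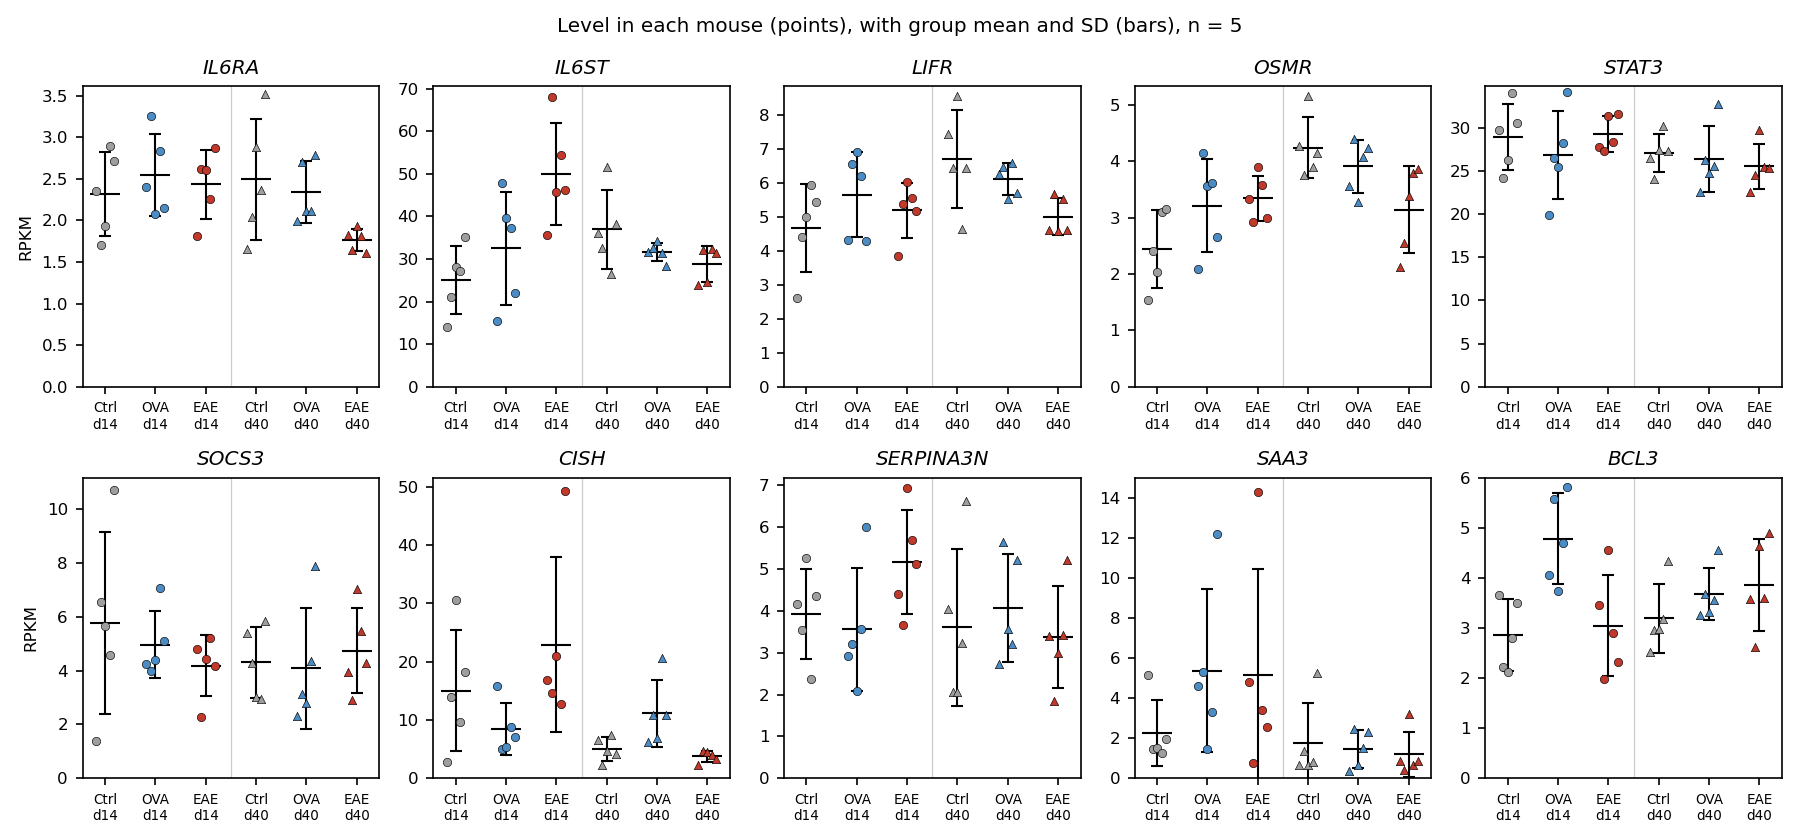
Level of the 10 genes in every mouse, in RPKM from 0 upwards, for the 6 groups (circles for day 14, triangles for day 40; grey Ctrl, blue OVA, red EAE). Horizontal bars are group means and whiskers are the SD over 5 mice, cut at 0 for SAA3. IL6ST is highest in EAE mice on day 14, at 35.7 to 67.9 RPKM, and STAT3 lies between 19.9 and 34.1 RPKM in all groups.

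Calls required a fold change above 1.5 together with an adjusted p below 0.05 in limma on log2(RPKM + 0.1). The adjustment (Benjamini-Hochberg) ran over every gene whose mean exceeded 3 RPKM in 1 or more of the compared groups. On day 14, 9 of the 10 genes passed this filter and IL6RA did not. Between EAE and Ctrl mice, IL6ST was called higher, no gene of the 10 was called lower, and the median log2 fold change of the 9 was 0.40, against 0.11 over all genes. OSMR, SAA3 and BCL3 passed the filter there only through the EAE mice, where their means are higher, so these medians are descriptions. Of the 8771 genes tested in that comparison 14.6% were called higher and 11.8% lower, so 1 call among 9 was not above the background. Between EAE and OVA mice, CISH was called higher and BCL3 lower, while 11% of 8674 genes were called higher and 9.28% lower. Between OVA and Ctrl mice none of the 9 was called by limma, and 0.0944% of 8471 genes were called higher and 0.0472% lower. At an unadjusted p below 0.05 stood 1 of the 9 (BCL3) and 9.69% of all genes. BCL3, like OSMR and SAA3, passed the filter there only through the OVA mice, where it is high.

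On day 40 none of the 8 genes that passed the filter was called in any comparison. Higher calls made up 0.069% and lower calls 0.391% of 8691 genes for EAE against Ctrl mice. The shares were 0.0349% and 0.174% of 8598 genes for EAE against OVA mice, and 0% and 0% of 8706 genes for OVA against Ctrl mice. An unadjusted p below 0.05 in limma was reached by 3 of the 8 for EAE against Ctrl mice (IL6ST, LIFR and OSMR), where 27.9% of all genes reached it. It was reached by 3 of the 8 for EAE against OVA mice (LIFR, OSMR and CISH) and by 17.4% of all genes. Between OVA and Ctrl mice 1 of the 8 (CISH) and 3.12% of all genes reached it.

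Whether an effect differed between day 14 and day 40 was asked with interaction terms fitted to all 30 mice. IL6ST and OSMR were called lower for the change of EAE vs. Ctrl, where 11.7% of 9013 genes were called higher and 20.9% lower. CISH was called lower and BCL3 higher for the change of EAE vs. OVA, where 8.16% of 8935 genes were called higher and 13.7% lower. For the change of OVA vs. Ctrl limma called none of 9 and 0% of 8848 genes in either direction, and an unadjusted p below 0.05 was found for 1 of the 9 (CISH) and for 9.3% of all genes. Within groups, day 40 against day 14, OSMR was called higher and CISH lower in Ctrl mice, where 5.02% of 8788 genes were called higher and 4.35% lower. In OVA mice limma called none of 9, against 2.25% of 8648 genes called higher and 1.71% called lower. An unadjusted p below 0.05 was found for 1 of the 9 (SAA3) and for 24.6% of all genes. In EAE mice IL6ST, SAA3 and CISH were called lower, with 8.36% of 8709 genes called higher and 12.7% lower. These comparisons share groups of mice and are not independent of one another.

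**Figure D2:**
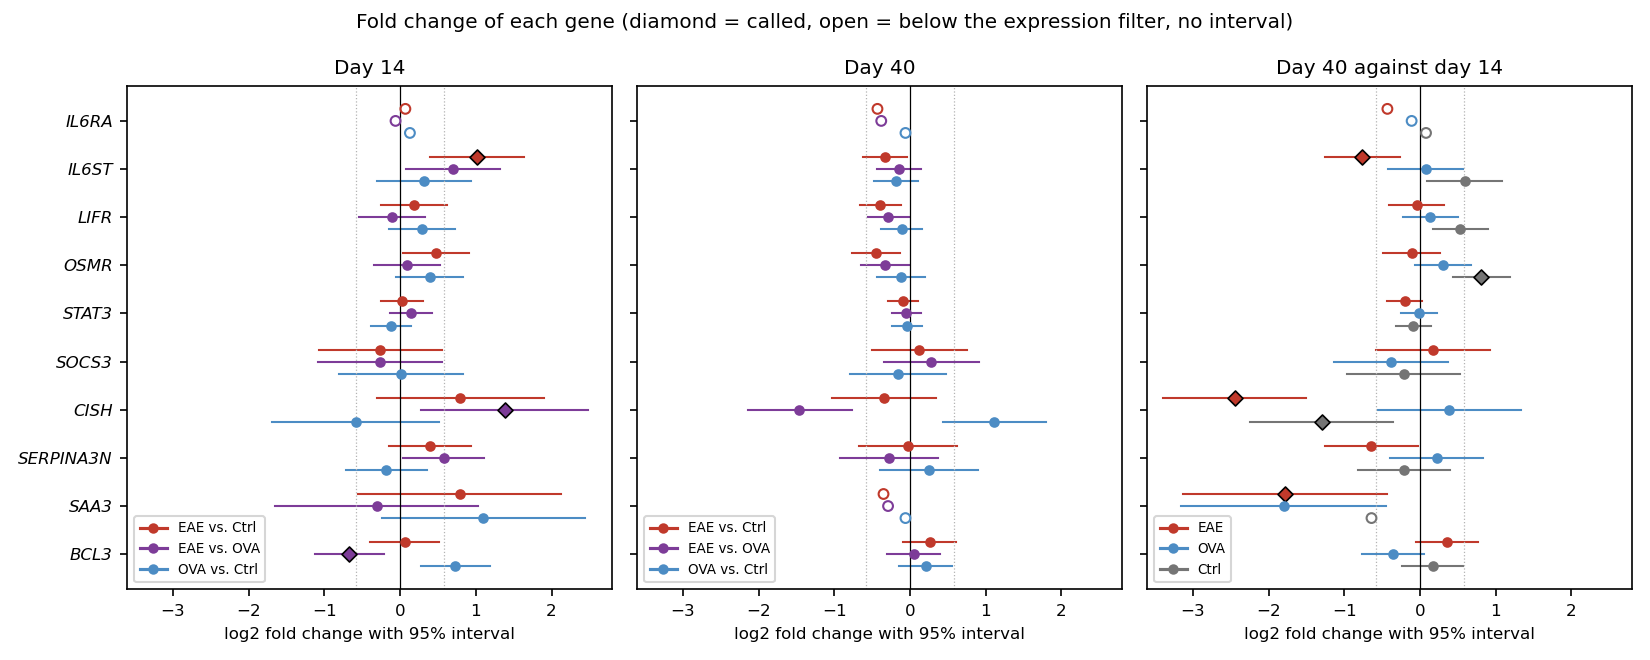
Log2 fold change of each gene with its 95% interval, for the comparisons on day 14, on day 40 and between the days within each group. Diamonds are called genes, open circles are genes below the expression filter, and dotted lines mark a fold change of 1.5. IL6ST lies at 1.02 for EAE vs. Ctrl on day 14 and CISH at -2.44 for EAE mice between the days.

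IL6ST (chr13:112464070-112506860, GRCm38), the signal-transducing chain shared by the whole cytokine family, was higher in EAE than in Ctrl mice on day 14. The EAE mice had 35.7, 67.9, 45.7, 54.4 and 46.1 RPKM in the order of their replicate numbers, and the Ctrl mice had 14.0, 21.1, 28.1, 27.2 and 35.2 RPKM. Every EAE mouse lay above every Ctrl mouse, the closest pair being 35.7 and 35.2 RPKM. IL6ST averaged 50 ± 12 RPKM in EAE and 25.1 ± 7.98 RPKM in Ctrl mice (SD, n = 5), and the log2 fold change was 1.02 (SE 0.29, limma adjusted p = 0.00984). OVA mice lay in between, with 15.5, 47.9, 39.7, 37.2 and 22.1 RPKM, and overlapped with both groups. Their log2 difference from EAE mice, 0.70 (SE 0.29, limma adjusted p = 0.0686), was not called, but it was without the OVA mouse with replicate number 2 (0.87, limma adjusted p = 0.0303). It was also called with all 30 mice in 1 model (0.70, limma adjusted p = 0.0175).

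On day 40 the order of IL6ST was different. EAE mice had 24.0, 32.0, 24.6, 32.3 and 31.5 RPKM, OVA mice 31.6, 32.6, 34.3, 31.4 and 28.4 RPKM, and Ctrl mice 36.0, 32.5, 51.7, 26.5 and 38.1 RPKM. The 3 groups overlapped, and EAE mice differed from Ctrl mice by -0.33 on the log2 scale (SE 0.14, limma adjusted p = 0.139). In EAE mice, IL6ST fell by 0.77 on the log2 scale between day 14 and day 40 (SE 0.24, limma adjusted p = 0.00999), and all 5 mice of day 40 lay below all 5 of day 14. In Ctrl mice the difference between the days had the opposite sign, 0.59 (SE 0.24, limma adjusted p = 0.0628), and was called without day 14 mouse 5 (0.72) or day 40 mouse 4 (0.70). The effect of EAE against Ctrl was lower on day 40 than on day 14 by 1.35 on the log2 scale (SE 0.34, limma adjusted p = 0.00222).

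OSMR (chr15:6813568-6874968), the second chain of the oncostatin M receptor, had a change in Ctrl mice. On day 14 the Ctrl mice had 1.53, 2.41, 2.04, 3.09 and 3.15 RPKM, and on day 40 they had 4.26, 3.76, 5.15, 3.89 and 4.14 RPKM. All 5 mice of day 40 lay above all 5 of day 14, and OSMR rose by 0.81 on the log2 scale (SE 0.19, limma adjusted p = 0.00417). In Ctrl mice OSMR passed the filter of 3 RPKM only through day 40, where it is high. For EAE against Ctrl mice on day 14 OSMR passed it only through the EAE mice, where it is high. In EAE mice the values of day 14, 3.32, 2.92, 3.89, 3.57 and 2.99 RPKM, overlapped with those of day 40, 2.13, 2.55, 3.38, 3.79 and 3.86 RPKM. OSMR in EAE against Ctrl mice was at 0.47 on day 14 (SE 0.21, limma adjusted p = 0.0693) and at -0.45 on day 40 (SE 0.15, limma adjusted p = 0.0899), and neither was called. The difference of these effects, -0.92 (SE 0.26, limma adjusted p = 0.0054), was called. OVA mice had 3.21 ± 0.823 and 3.91 ± 0.478 RPKM on the 2 days (SD, n = 5).

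LIFR (chr15:7090610-7197489), the receptor chain for leukemia inhibitory factor, was called in no comparison. Its lowest group mean was that of Ctrl mice on day 14, 4.68 ± 1.29 RPKM, and its highest that of Ctrl mice on day 40, 6.70 ± 1.44 RPKM (SD, n = 5). These differed by 0.53 on the log2 scale (SE 0.18, limma adjusted p = 0.0262), which is under a fold change of 1.5. EAE mice were at 5.19 ± 0.807 RPKM on day 14 and at 5.00 ± 0.546 RPKM on day 40, and on day 40 they differed from Ctrl mice by -0.39 (SE 0.13, limma adjusted p = 0.081). LIFR in Ctrl mice between the days was called without day 14 mice 4 or 5 or day 40 mouse 4, at 0.60 to 0.66. The change of its EAE vs. Ctrl effect, -0.58 (SE 0.25, limma adjusted p = 0.0564), was called without any of 5 mice (Ctrl mice 4 and 5 and EAE mouse 1 of day 14, Ctrl mouse 4 and EAE mouse 2 of day 40), at -0.70 to -0.63.

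IL6RA (chr3:89869324-89913196), the chain that binds IL-6 itself, stayed below 3 RPKM in every group mean and was compared by exact permutation tests. On day 40 the EAE mice had 1.83, 1.65, 1.93, 1.81 and 1.61 RPKM, and the OVA mice had 1.99, 2.70, 2.11, 2.11 and 2.79 RPKM. All EAE mice lay below all OVA mice (two-sided exact permutation p = 0.00794, the smallest that 5 against 5 mice can give, and 0.103 after Benjamini-Hochberg adjustment over the 13 such tests of IL6RA and SAA3). The Ctrl mice of day 40 had 1.66 to 3.52 RPKM and overlapped with EAE mice (exact permutation p = 0.0476, adjusted 0.206). On day 14 the 3 groups had means of 2.32 to 2.54 RPKM and overlapped.

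The receptor transcripts IL6ST, LIFR and OSMR moved with a property of the libraries. For each mouse, the median deviation of 1489 genes with under 1.5 kb of exon was subtracted from that of 1081 genes with over 6 kb, giving a length index on the log2 scale. Its group medians were -0.32 (Ctrl), 0.02 (OVA) and 0.23 (EAE) on day 14. On day 40 they were 0.27 (Ctrl), 0.17 (OVA) and 0.04 (EAE). The medians of IL6ST had the same order as the index on each day, with 36 (Ctrl), 31.6 (OVA) and 31.5 RPKM (EAE) on day 40. Within groups the index correlated over the 30 mice with IL6ST at r = 0.97, with LIFR at 0.88 and with OSMR at 0.67, whose exons cover 8.68, 10.37 and 5.49 kb. STAT3, with 6.23 kb of exon, was at r = 0.04 and IL6RA, with 8.64 kb, at 0.30. These are descriptions, since the points share libraries and the index includes long genes by construction. When the trend over exon length was taken out of each library, a step chosen after seeing the data, IL6ST in EAE against Ctrl mice on day 14 was at 0.63 (limma adjusted p = 0.00385) and still called. Its change between the days was at -0.71 and also called. The fall of IL6ST within EAE mice was then at -0.51 and under the fold threshold. OSMR was called in neither comparison after this correction, at 0.54 in Ctrl mice between the days and at -0.50 for the change of EAE vs. Ctrl. In the libraries as deposited, the Ctrl mouse with replicate number 1 on day 14 had the lowest index, -1.03, and the lowest IL6ST, LIFR and OSMR of all mice. Without that mouse IL6ST was still called in EAE against Ctrl mice on day 14, as it was without any other single mouse of the 2 groups, at 0.83 to 1.16.

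**Figure D3:**
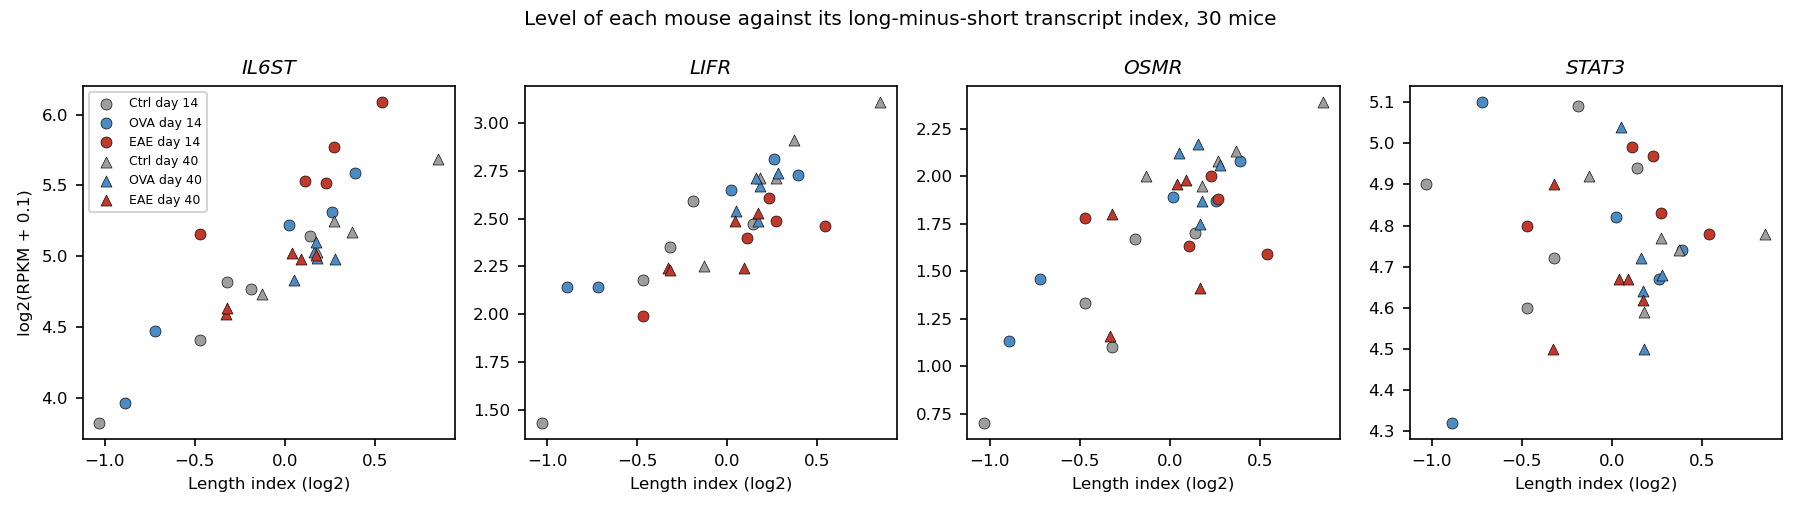
Log2(RPKM + 0.1) of IL6ST, LIFR, OSMR and STAT3 in each mouse (vertical) against the length index of that mouse on the log2 scale (horizontal), 30 mice coloured by group. The first 3 genes rise with the index (r within groups 0.97, 0.88 and 0.67), STAT3 does not (0.04), and on the IL6ST panel the EAE mice of day 14 lie above other mice of like index.

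STAT3 (chr11:100886806-100939594), the transcription factor through which gp130 signals, was among the most even of the 10. Mice ranged from 24.2 to 34.0 RPKM (Ctrl), from 19.9 to 34.1 RPKM (OVA) and from 27.3 to 31.6 RPKM (EAE) on day 14. On day 40 they ranged from 24.0 to 30.2, from 22.5 to 32.7 and from 22.6 to 29.7 RPKM. The groups overlapped throughout. EAE mice differed from Ctrl mice by 0.02 on the log2 scale on day 14 (95% interval -0.25 to 0.30, limma adjusted p = 0.898) and by -0.09 on day 40 (-0.29 to 0.11, limma adjusted p = 0.538). Both intervals lie within a fold change of 1.5. RNA level does not measure STAT3 phosphorylation, which was not assayed here.

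SOCS3 (chr11:117966079-117970336), the gp130 feedback inhibitor whose STAT motif is printed above, was called in no comparison. On day 14 EAE mice had 4.80, 2.27, 4.42, 5.19 and 4.18 RPKM, OVA mice 4.25, 4.0, 4.4, 7.08 and 5.10 RPKM, and Ctrl mice 1.39, 6.55, 5.66, 4.58 and 10.7 RPKM. The Ctrl group held both the lowest and the highest value of the day. EAE differed from Ctrl by -0.26 on the log2 scale (95% interval -1.07 to 0.56, limma adjusted p = 0.602). The interval includes a fall of more than 1.5-fold. Without the Ctrl mouse with replicate number 1 the difference was -0.69 and called (limma adjusted p = 0.0432), and without the Ctrl mouse with replicate number 5 it was 0.03. On day 40 the means were 4.73 ± 1.58 (EAE), 4.09 ± 2.24 (OVA) and 4.30 ± 1.32 RPKM (Ctrl; SD, n = 5), and the groups overlapped.

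CISH (chr9:107296659-107302784), the STAT5-induced relative of SOCS3 with the paired motif shown above, had the largest differences of the 10 in the comparisons of EAE with OVA mice and in EAE mice between the days. On day 14 EAE mice had 16.9, 14.7, 21.0, 12.8 and 49.2 RPKM, OVA mice had 15.9, 4.97, 5.41, 8.83 and 7.09 RPKM, and Ctrl mice had 2.74, 13.9, 30.5, 9.57 and 18.3 RPKM. In OVA mice 4 of 5 lay below every EAE mouse, and the Ctrl mice spread across both groups. EAE was above OVA by 1.38 on the log2 scale (SE 0.52, limma adjusted p = 0.0466) and was called. That call was lost without any of 8 of the 10 mice of these groups, where the limma adjusted p was 0.0585 to 0.13 (each EAE mouse except replicate 4, and each OVA mouse except replicate 1). EAE differed from Ctrl by 0.79 (SE 0.52, limma adjusted p = 0.216).

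On day 40 CISH had the opposite order in EAE and OVA mice. EAE mice had 2.22, 4.63, 4.45, 4.04 and 3.36 RPKM, OVA mice 6.25, 10.9, 6.97, 20.7 and 10.8 RPKM, and Ctrl mice 6.55, 2.25, 4.71, 7.34 and 4.17 RPKM. Every EAE mouse lay below every OVA mouse, while Ctrl mice overlapped with both. EAE was below OVA by -1.46 on the log2 scale (SE 0.32, limma adjusted p = 0.0504, not called), the 3rd largest absolute difference of the 8598 genes. It was called without the OVA mouse with replicate number 1 (-1.63, limma adjusted p = 0.0385). OVA was above Ctrl by 1.11 (SE 0.32, limma adjusted p = 0.999). In EAE mice, CISH fell by 2.44 between day 14 and day 40 (SE 0.46, limma adjusted p = 8.9e-05), 5.44-fold, with no overlap, and it fell by 1.30 in Ctrl mice (SE 0.46, limma adjusted p = 0.0348). The call in Ctrl mice was lost without any of 6 single mice (on each day replicates 2, 3 and 5), at a limma adjusted p of 0.0627 to 0.109. In OVA mice the difference between the days was 0.39 (SE 0.46, limma adjusted p = 0.639). The change of EAE vs. OVA was -2.83 (SE 0.65, limma adjusted p = 0.00141), a 7.14-fold difference between the 2 effects that was called without each of the 20 mice in turn, at -3.10 to -2.51.

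SERPINA3N (chr12:104406646-104414334), an inhibitor of serine proteases and an acute phase gene, was called in no comparison. It belongs to a cluster of closely similar mouse genes, and how reads that match several of them were counted is not given in the sources used here. On day 14 EAE mice had 4.41, 3.67, 6.92, 5.69 and 5.12 RPKM, OVA mice 2.93, 3.21, 2.09, 3.56 and 6.00 RPKM, and Ctrl mice 4.15, 3.54, 5.27, 2.36 and 4.34 RPKM. All 5 EAE values were above 4 of the 5 OVA values, but the groups overlapped. The difference from OVA was 0.58 on the log2 scale (SE 0.25, limma adjusted p = 0.0816), called without the OVA mouse with number 5 at 0.78 (limma adjusted p = 0.0166), and that from Ctrl 0.40 (SE 0.25, limma adjusted p = 0.20). In EAE mice the difference between the days was -0.64 (SE 0.30, limma adjusted p = 0.0762), and it was called without day 40 mouse 5 (-0.81, limma adjusted p = 0.0318) and with the compared groups only (limma adjusted p = 0.0392). Day 40 means were 3.37 ± 1.21 (EAE), 4.07 ± 1.28 (OVA) and 3.60 ± 1.88 RPKM (Ctrl; SD, n = 5).

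SAA3 (chr7:46711998-46719615), a serum amyloid A gene made outside the liver, spread widely between mice of the same group. On day 14 EAE mice had 4.82, 0.754, 14.3, 3.4 and 2.57 RPKM, OVA mice 4.61, 5.31, 1.47, 3.29 and 12.2 RPKM, and Ctrl mice 5.14, 1.44, 1.53, 1.26 and 1.96 RPKM. The SD in EAE mice was larger than the mean (5.16 ± 5.30 RPKM, n = 5), and the groups overlapped. The log2 difference from Ctrl was 0.79 in EAE mice (SE 0.63, limma adjusted p = 0.314) and 1.10 in OVA mice (SE 0.63, limma adjusted p = 0.606). For each of these differences SAA3 passed the filter only through the immunized mice, where it is high. On day 40 EAE mice had 0.864, 0.408, 3.19, 0.655 and 0.878 RPKM and OVA mice 0.348, 2.47, 0.645, 1.51 and 2.29 RPKM. SAA3 fell in EAE mice between the days by 1.78 on the log2 scale (SE 0.66, limma adjusted p = 0.0269), with overlap, and OVA mice showed a difference of -1.80 (SE 0.66, limma adjusted p = 0.0837), called without day 14 mouse 3 at -2.17. In both groups SAA3 passed the filter of 3 RPKM only through day 14, where it is high. Ctrl mice had 0.641, 1.35, 0.658, 0.827 and 5.27 RPKM on day 40, overlapping with those of day 14 (-0.64 on the log2 scale, two-sided exact permutation p = 0.365, adjusted 0.851). The fall in EAE mice was not called without the EAE mouse of day 14 with replicate number 1 or the EAE mice of day 40 with numbers 2 or 4, at a limma adjusted p of 0.0553 to 0.0741. Without the EAE mouse of day 14 with number 3 the group mean was under 3 RPKM and the gene was not tested.

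The summed neutrophil markers and the mean of SAA3 were both lower on day 40 than on day 14 in EAE and OVA mice. In Ctrl mice SAA3 was lower in mean on day 40, and the 2 markers tested had a median log2 difference of 1.03. These passed the filter only through day 40, and neither was called. For the change of EAE vs. Ctrl between the days 3 of 4 markers were called lower (20.9% of all genes). None was called for the change of OVA vs. Ctrl, and SAA3 was called for neither change. Of the 12 markers 4 passed the filter on day 14, through the immunized groups alone, since none had a mean above 3 RPKM in Ctrl mice. The summed level of the 12 was 203 to 395 RPKM in EAE mice on day 14 and 7.80 to 55.3 RPKM on day 40. In OVA mice it was 66.2 to 231 and 15.8 to 34.6 RPKM, and in Ctrl mice 5.15 to 10.8 and 5.68 to 71.6 RPKM. Between EAE and OVA mice on day 14, 3 of the 4 markers tested were on the lower side and 1 was called higher (11% of all genes). Their median log2 fold change was -0.91. No marker was at 0 in all 5 mice of a group on day 14, and 1 was in OVA mice on day 40. The part of these markers in the SAA3 result was not tested. Markers of fibroblasts fell on day 14, with 9 of 11 called lower in EAE against Ctrl mice (11.8% of all genes) and a summed level of 823 to 1210 against 2070 to 3010 RPKM. The Ctrl mice of day 14 also lay above the OVA mice of that day (1430 to 1980 RPKM) and the Ctrl mice of day 40 (1680 to 1880 RPKM). Markers were called lower for macrophages as well, with 6 of 10 tested called lower and a summed level of 158 to 357 against 341 to 503 RPKM. Endothelial markers were called lower in 4 of 12, and erythrocyte markers summed to 26.5 to 189 RPKM in EAE and 189 to 684 RPKM in Ctrl mice. Satellite cell markers summed to 103 to 169 and 58 to 77.3 RPKM, with 3 of 5 tested called higher (14.6% of all genes) and the other 2 on the lower side. Muscle fibre markers summed to 68400 to 82300 RPKM in EAE mice and 91400 to 122000 RPKM in Ctrl mice on day 14, without overlap. Of these 10 markers 1 was called higher and 1 lower (14.6% and 11.8% of all genes). The part of these markers in the results of day 14 was not tested either. All 10 muscle fibre markers had means above 3 RPKM in every group, so the defining markers of the labelled tissue were present.

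BCL3 (chr7:19808462-19822824), the IκB protein induced by inflammatory cytokines, was highest in OVA mice on day 14. OVA mice had 4.07, 5.59, 3.74, 4.71 and 5.82 RPKM, EAE mice 3.47, 1.99, 4.56, 2.90 and 2.33 RPKM, and Ctrl mice 3.67, 2.23, 2.12, 2.8 and 3.5 RPKM. Every OVA mouse lay above every Ctrl mouse, and 4 of 5 EAE mice lay below every OVA mouse. EAE was below OVA by -0.67 on the log2 scale (SE 0.22, limma adjusted p = 0.0228) and was called. OVA was above Ctrl by 0.73 (SE 0.22), but with a limma adjusted p of 0.29 over all genes it was not called. In that comparison BCL3 passed the filter only through the OVA mice, where it is high. EAE and Ctrl were 0.06 apart (95% interval -0.40 to 0.52, limma adjusted p = 0.83). The call against OVA was lost without OVA mice 2 or 5 or EAE mice 2 or 5 (limma adjusted p 0.0515 to 0.0692). On day 40 the means were 3.87 ± 0.921 (EAE), 3.68 ± 0.524 (OVA) and 3.20 ± 0.687 RPKM (Ctrl; SD, n = 5), with overlap. The change of EAE vs. OVA, 0.72 (SE 0.28, limma adjusted p = 0.0471), was called and was lost without any of 14 of the 20 mice.

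Around the 10 genes, 8 lists held 128 further genes of the pathway, of which 72 passed the filter for EAE against Ctrl mice on day 14, with 21 called higher and 14 lower. Each count of called genes for this comparison stands against 14.6% called higher and 11.8% called lower over all 8771 genes. Among 21 tested genes listed as STAT3 targets, 10 were called higher and 5 lower, with a median log2 fold change of 0.48 against 0.11 over all genes. The part of STAT3 in these changes was not tested, since neither its phosphorylation nor its binding was measured. The cell cycle inhibitor CDKN1A was at 198 ± 80.2 RPKM in EAE and 24.4 ± 6.04 RPKM in Ctrl mice (SD, n = 5). It rose by 2.94 on the log2 scale (SE 0.30, limma adjusted p = 4.38e-06) without overlap. TNFRSF12A, the receptor of the cytokine TWEAK, rose by 2.07 (SE 0.37, limma adjusted p = 0.0004). FOS, an immediate early factor, rose by 1.46 (SE 0.36) and HSPB1, a small heat shock protein, by 1.44 (SE 0.27). The members of this list called lower included CCND1, TIMP1, VEGFA, NNMT and IL4RA. Of these, CCND1 and NNMT averaged 2.28 and 1.68 RPKM in EAE mice and passed the filter only through the Ctrl mice, where they are high.

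Some acute phase genes other than the members were called in each comparison of day 14. Of 10 tested, 3 were called higher by limma in EAE against Ctrl mice on day 14 (14.6% of all genes) and the others were not called. LCN2, an iron-sequestering lipocalin, was at 12.4 ± 3.52 RPKM in EAE, 9.38 ± 3.52 in OVA and 1.00 ± 0.628 in Ctrl mice (SD, n = 5). It rose by 3.72 in EAE mice (SE 0.40, limma adjusted p = 5.39e-06) and by 3.28 in OVA mice (SE 0.40, limma adjusted p = 0.000777), both without overlap with Ctrl mice, and it was the only one of the 72 pathway genes tested that was called in OVA mice, where 0.0944% of all genes were called higher and 0.0472% lower. It passed the filter only through the immunized groups, where it is high. The summed neutrophil markers were higher in the same groups, as given with SAA3, and their part in the LCN2 result was not tested. The metallothionein MT1 rose by 1.17 (SE 0.44) and the haemoglobin-binding protein HP by 1.04 (SE 0.37). Against OVA mice, MT1 and MT2 were called higher and LRG1 and CD14 lower in EAE mice, of 10 tested (11% and 9.28% of all genes).

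Among JAK kinases and the other STATs, 2 of 9 were called higher and 3 lower in EAE against Ctrl mice on day 14, where the shares over all genes were 14.6% and 11.8%. JAK1, the main kinase bound to gp130, rose by 0.70 (SE 0.18, limma adjusted p = 0.00575), and STAT5A, the factor that drives CISH in other tissues, rose by 0.90 (SE 0.16, limma adjusted p = 0.000367). STAT2, a factor of interferon signalling, fell by 1.24 (SE 0.26, limma adjusted p = 0.00147). It passed the filter only through the Ctrl mice, where it is high. Of the other inhibitors 2 of 13 were called higher and 3 lower, the higher calls being near the share of 14.6% over all genes. SOCS1, the inhibitor of interferon signalling, was at 1.06 ± 0.354 RPKM in EAE and 3.79 ± 1.38 RPKM in Ctrl mice (SD, n = 5), and it fell by 1.73 (SE 0.25, limma adjusted p = 7.69e-05). OVA mice were at 1.47 RPKM on average, and SOCS1 passed the filter only through the Ctrl mice of day 14, where it is high. In Ctrl mice SOCS1 was at 0.901 ± 0.309 RPKM on day 40, where it fell by 1.95 from day 14 (SE 0.27, limma adjusted p = 3.5e-05). SOCS2 and the phosphatase PTPN6 were lower in EAE than in Ctrl mice on day 14, and SOCS6 was higher. The day 14 means of SOCS6 also had the order of the length index, whose part was not tested. PTPN6 passed the filter only through the Ctrl mice, where it is high.

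The receptor chain of ciliary neurotrophic factor, CNTFR, rose by 0.87 in EAE against Ctrl mice on day 14 (SE 0.26, limma adjusted p = 0.012) and IL10RB fell by 0.76 (SE 0.14), among 4 other receptor chains tested. In the growth hormone and STAT5 axis, 1 of 10 was called higher and 3 lower (14.6% and 11.8% of all genes). IL15, a cytokine made by muscle, fell by 1.10 (SE 0.12, limma adjusted p = 8.55e-06). It passed the filter only through the Ctrl mice, where it is high. Of 6 NF-kB genes tested, 3 were called higher by limma (14.6% of all genes) and the others were not called: NFKB2 by 0.92 (SE 0.14, limma adjusted p = 8.01e-05), NFKBIB by 0.77 (SE 0.14) and RELB by 0.69 (SE 0.14). These 3 were also called higher against OVA mice, where 11% of all genes were called higher and BCL3 was lower. Some genes stand in 2 of the lists, among them STAT5A and SOCS2.

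**Figure D4:**
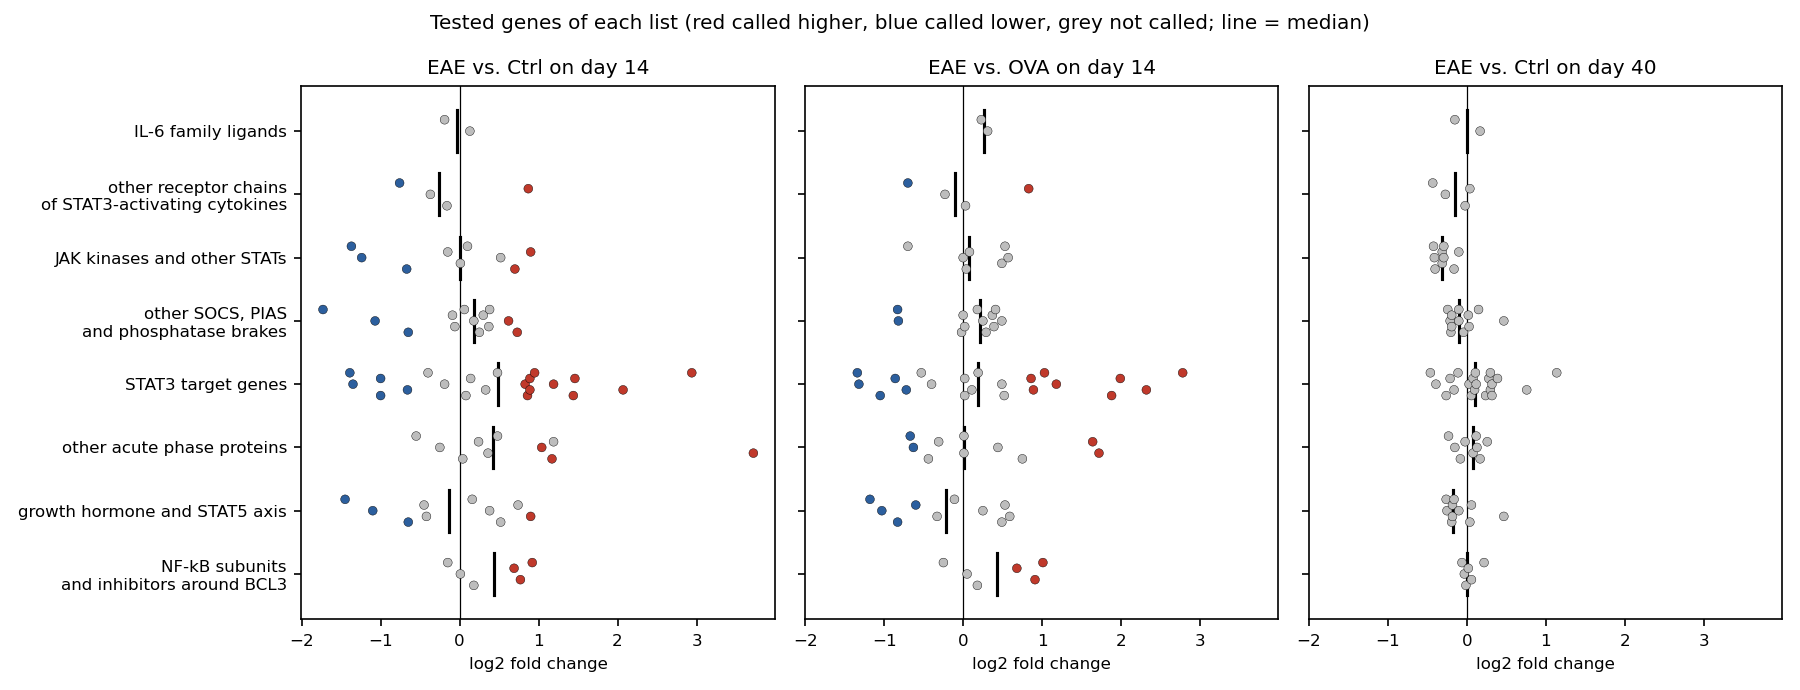
Log2 fold change (horizontal) of the tested genes of 8 pathway lists without the 10 members, for EAE vs. Ctrl and EAE vs. OVA on day 14 and EAE vs. Ctrl on day 40. Red points were called higher, blue points lower and grey points not called, and black lines are list medians. On day 14 the STAT3 target genes spread from -1.39 to 2.94 against Ctrl, and on day 40 no point is called.

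On day 40 limma called none of the 70 pathway genes tested in EAE against Ctrl mice, 14 of which had an unadjusted p below 0.05 (27.9% of all genes had), and 1 of 70 against OVA mice (0.0349% of all genes higher and 0.174% lower). At an unadjusted p below 0.05 stood 15 of these 70 and 17.4% of all genes. The gene called was STAT2, at 3.73 ± 0.536 RPKM in EAE and 6.20 ± 1.49 RPKM in OVA mice (SD, n = 5), with a log2 difference of -0.70 (SE 0.15, limma adjusted p = 0.0464). Within EAE mice, 10 of 69 pathway genes were called higher and 15 lower on day 40 than on day 14, against 8.36% and 12.7% of all genes. LCN2 fell by 3.70 (SE 0.47, limma adjusted p = 3.33e-07) and passed the filter only through day 14, where it is high. CDKN1A fell by 2.95 (SE 0.26), HSPB1 fell by 2.33 (SE 0.24), and NFKB2 fell by 1.01 (SE 0.12). IL15 rose by 1.30 (SE 0.13) and STAT2 by 1.03 (SE 0.22). Both passed the filter within EAE mice only through day 40, where they are high.

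Genes with the most similar levels over the 30 mice were taken from the 9049 genes that exceeded 3 RPKM on average in any of the 6 groups, as a description of libraries that share groups and depth. IL6ST was nearest to IGF2R, AGO2 and CLASP1 (each r = 0.97) and LIFR to MPDZ (0.95). STAT3 was nearest to ATXN7L3 (0.78), SBNO2 (0.73) and RELA (0.67), and SOCS3 to THBD (0.62). SAA3 was nearest to PGLYRP1 and IFITM1 (both 0.78) and to the acute phase gene LRG1 (0.76), SERPINA3N to HP (0.67), and BCL3 to WFDC17 and LITAF (both 0.78). CISH was nearest to SF3B4 (0.74), which was 0.40 within groups. Among the 10 genes themselves, the closest pairs within groups were IL6ST with LIFR (r = 0.83) and SAA3 with BCL3 (0.82).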

How the data were processed

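The authors prepared poly(A) libraries with a directional kit and, as their methods and processing notes state, used Subread for alignment (mm10), featureCounts for counting over RefSeq gene models and RPKM as the expression unit. The deposited table held 21073 genes in 30 mice as log2 values, log2(RPKM + 1), with 0.0001 for a gene without a read. That scale was read from the data, since RPKM times exon length in kilobases should sum to 1000000 in a library and summed to 980546 (median) on that scale, against 127862 if the values were read as RPKM. Values were converted back to RPKM. Reads assigned per mouse, estimated from single-read steps and given in units of 1000000 (M), were 18.1M to 31.5M (median 21.5M). The table holds no counts, so the count test named in the study's methods was not used.

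Groups were fitted with limma 3.58.1 in R 4.3.3 (lmFit and eBayes with trend) on log2(RPKM + 0.1), a scale that understates changes of low genes. Comparisons within a day used its 15 mice together, and interactions and day comparisons used all 30. Only genes whose mean exceeded 3 RPKM in some compared group were tested. Calls followed the thresholds given with the first results. Each mouse was 1 sample. Exon lengths (19914 genes, 94.5%) came from the GRCm38 annotation. The fits were tested on simulated data. The named genes were all 10 members, up to 4 called genes of each list per comparison with the largest change, 6 ligands and the 3 most similar genes per member, to which CCND1, TIMP1, VEGFA, NNMT, IL4RA and CTF1 were added after their values were seen. Some genes of the pathway lists are not reported here. The members, lists and tests were chosen with earlier results of these data known. Alternatives were other pseudocounts, filters, scalings, models and single mice left out.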

Additional observations from a re-analysis of the deposited data

Results flagged for a closer look

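The effect of EAE against Ctrl differed between day 14 and day 40 for IL6ST (difference of the log2 effects -1.35) and OSMR (-0.92), and the effect of EAE against OVA differed for CISH (-2.83) and BCL3 (0.72), each by the interaction term in limma. In 1 of the 60 groups of 5 mice examined for an outlying value, an EAE mouse of day 14 stood apart: replicate 2 had 2.27 RPKM of SOCS3, with a gap to its nearest neighbour of 0.735 of the group's range (threshold 0.71). Chance alone flags about 1 in 20 such groups.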

How the results depend on the processing

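Of 297 counts of called genes under the alternatives 253 were within 1.5 times the reported count. Of 2574 fold changes 2426 kept their direction and side of the threshold. The cause of the others was not tested. EAE vs. OVA on day 14 kept 1 call in place of 2 with pseudocount 1 (CISH) and without a filter on low values, with median-of-ratios scaling, with quantile normalization and with the length correction (BCL3). EAE vs. OVA on day 40 had 1 call in place of 0 (CISH) with pseudocounts 0.5 and 1 and with the compared groups only. The change of EAE vs. OVA had 1 in place of 2 (CISH) with pseudocount 1, without a filter and with a mean above 1 RPKM. In Ctrl mice between the days there was 1 in place of 2 without a filter and with the compared groups only (OSMR), and with the length correction (CISH). Under that correction, chosen after seeing the data, the change of EAE vs. Ctrl had 1 (IL6ST).

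With 1 mouse left out, the counts were 1 to 2 for EAE vs. Ctrl and 0 to 2 for EAE vs. OVA on day 14, 0 to 1 for EAE vs. OVA on day 40, 1 to 3 for the change of EAE vs. OVA, 1 to 4 for Ctrl mice between the days (4 without day 40 replicate 4, with IL6ST and LIFR) and 0 to 1 for OVA mice (1 without day 14 replicate 3, SAA3). Directions that turned with 1 mouse left out belonged to differences that were not called. For EAE vs. Ctrl on day 14 the ranges were -0.01 to 0.29 (LIFR), -0.04 to 0.08 (STAT3), -0.03 to 0.20 (BCL3) and -0.69 to 0.03 (SOCS3). For EAE vs. OVA on day 14 they were -0.05 to 0.19 (OSMR) and -0.82 to 0.20 (SAA3), and for OVA vs. Ctrl -0.42 to 0.30 (SOCS3). For EAE vs. Ctrl on day 40 they were -0.20 to 0.22 (SERPINA3N) and -0.03 to 0.28 (SOCS3), for EAE vs. OVA -0.10 to 0.04 (STAT3) and -0.05 to 0.18 (BCL3), and for OVA vs. Ctrl -0.12 to 0.01 (STAT3) and -0.43 to 0.01 (SOCS3). For the change of EAE vs. OVA the range was -0.50 to 0.52 (SAA3), and for that of OVA vs. Ctrl -0.45 to 0.26 (SOCS3) and -0.03 to 0.17 (STAT3). Between the days it was -0.65 to 0.07 (SOCS3, Ctrl), -0.16 to 0.24 (IL6ST, OVA), -0.12 to 0.08 (STAT3, OVA), -0.03 to 0.32 (SOCS3, EAE), -0.15 to 0.01 (LIFR, EAE) and -0.19 to 0.01 (OSMR, EAE).

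The length correction turned the direction of 7 differences of STAT3, to -0.27 (EAE vs. Ctrl) and -0.08 (EAE vs. OVA) on day 14, to 0.02 (OVA vs. Ctrl), 0.09 (EAE vs. OVA) and 0.11 (EAE vs. Ctrl) on day 40, and to 0.38 and 0.17 for the changes of EAE vs. Ctrl and EAE vs. OVA. It did so for LIFR, to -0.22 (EAE vs. Ctrl, day 14), 0.01 (OVA vs. Ctrl, day 40), 0.10 and 0.26 (changes of EAE vs. Ctrl and EAE vs. OVA), -0.04 (OVA mice between the days) and 0.22 (EAE mice). For OSMR it gave -0.09 (EAE vs. OVA, day 14) and 0.04 (EAE mice between the days), for IL6ST 0.01 (EAE vs. OVA, day 40) and -0.10 (OVA mice between the days), and for SAA3 -0.27 (change of EAE vs. OVA). Median-of-ratios scaling put STAT3 for EAE vs. Ctrl on day 14 at -0.07 and LIFR in EAE mice between the days at 0.06. Quantile normalization put these at -0.07 and 0.02, SERPINA3N for EAE vs. Ctrl on day 40 at 0.13, BCL3 in Ctrl mice at -0.01 and STAT3 in OVA mice between the days at 0.02. SOCS3 for OVA vs. Ctrl on day 14 was at -0.01 and -0.03 with pseudocounts 0.5 and 1.

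The replicate numbers are only names: same-numbered mice of a day correlated at -0.71 to 0.69 (day 14) and -0.53 to 0.18 (day 40), and the best match had the same number in 6 and 1 of 30 tries. With a replicate block the counts were 3 for EAE vs. OVA on day 14, 3 for its change, 3 for Ctrl mice (IL6ST added in each) and 4 for EAE mice between the days (SERPINA3N added). All other counts were as reported. With 5 mice per group and no counts in the table, counting error could not be modelled, and genes under 3 RPKM such as IL6RA and IL6 limit what can be compared.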
